A study of Mus musculus with 30 samples.

Results

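The genes described here code for the Eph receptors and their ephrin ligands, the Slits with their Robo receptors and the srGAPs, and the netrins with DCC, neogenin and the UNC5 receptors. They were chosen by gene symbol, and 38 of the 16995 genes with values met the rule. These were 9 EphA and 5 EphB receptors, 4 ephrin-A and 3 ephrin-B ligands, 3 Slits, 3 Robos, 3 srGAPs, 2 netrins, DCC with neogenin, and 4 UNC5 receptors. Efna4 and Robo3 were not analysed here.

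RNA was sequenced from the intermediate laminae of cervical cord levels C5 and C6, on the side that had lost its corticospinal input, in adult female C57BL/6 mice. The stroke groups had received a photothrombotic stroke, in which light activates Rose Bengal in the vessels under the skull, over the right sensorimotor cortex. They were killed 4, 7, 14, 28 or 42 days post injury (dpi), and the control group (Ctrl) was sham-operated without illumination. Values were given for 29 of 30 labelled animals, 4 at 4 dpi and 5 in every other group, because the study left 1 animal at 4 dpi out as an outlier.

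Axon guidance molecules steer growing axons by attraction and repulsion. Ephrins are bound to the membrane, EphA receptors mainly bind ephrin-A and EphB receptors mainly ephrin-B, and in the corticospinal tract EphA4 signalling is known to keep axons from recrossing the spinal midline. Slits are secreted repellents that act through Robo receptors, whose intracellular part recruits the srGAPs, proteins that bend membranes. Netrin-1 attracts axons through DCC and repels them where UNC5 receptors are present, and this pair of midline systems patterns crossing axons in the developing cord.

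The 3 srGAP genes were the only ones of the 38 (7.89%) whose 28 dpi animals all lay above the Ctrl animals in the deposited values, as for 6.15% of all genes, and none lay below, so the 250 bases upstream of their RefSeq start sites are shown (build GRCm38.p6, 5′ to 3′ on the gene's strand). Srgap1 is read from chr10:122047316-122047565, Srgap2 from chr1:131527362-131527611 and Srgap3 from chr6:112947267-112947516, each on the minus strand. Capitals mark the GC box, GGGCGG or its reverse complement CCGCCC.
Srgap1: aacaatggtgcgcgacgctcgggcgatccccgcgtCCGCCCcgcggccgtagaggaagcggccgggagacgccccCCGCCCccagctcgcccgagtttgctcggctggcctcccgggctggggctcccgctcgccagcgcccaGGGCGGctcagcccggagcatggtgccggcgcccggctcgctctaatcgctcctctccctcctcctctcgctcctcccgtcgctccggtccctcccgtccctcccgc
Srgap2: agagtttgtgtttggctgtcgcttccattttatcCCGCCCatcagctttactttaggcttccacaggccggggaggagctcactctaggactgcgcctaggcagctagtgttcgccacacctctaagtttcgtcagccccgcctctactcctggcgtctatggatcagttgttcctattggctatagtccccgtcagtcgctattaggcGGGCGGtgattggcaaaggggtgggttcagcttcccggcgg
Srgap3: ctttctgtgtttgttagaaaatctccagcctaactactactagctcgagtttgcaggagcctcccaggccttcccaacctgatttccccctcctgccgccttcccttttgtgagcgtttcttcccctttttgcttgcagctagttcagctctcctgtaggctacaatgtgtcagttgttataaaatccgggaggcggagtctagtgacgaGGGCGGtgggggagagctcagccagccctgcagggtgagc
The Srgap1 window held 3 GC boxes and 35 CpG dinucleotides. The Srgap2 window held 2 GC boxes and 14 CpGs, and the Srgap3 window held 1 GC box, 7 CpGs and a TATA box (TATAAA, searched with its reverse complement TTTATA). Of 32851 windows of the same length in the RefSeq table, 32.7% held a GC box and 12.4% a TATA box, and the median window held 6 CpGs. The 3 windows thus ranged from CpG-rich to about the median. Of the guidance genes, 33 of 38 had an entry, and of their 38 windows 28 (73.7%) had a GC box. These matches are a description of letters in a window.

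The values were normalised CPM, reads of a gene scaled to the size of its library, rounded to 0.1, and levels were compared between genes after division by the length in kb of the longest coding transcript. In Ctrl animals the highest level per kb was that of Efnb3, an ephrin-B ligand, at 20.968 ± 3.52 (SD, n = 5). Srgap3 followed at 19.953 ± 1.48 per kb, and the ranges of the 2 genes overlapped. Robo1, a receptor of the Slits, came next at 12.8 ± 1.70 per kb, below every Srgap3 value. It was followed by Neo1, which codes for neogenin, at 10.9 ± 1.37 per kb. The step from Srgap3 to Robo1 was the only place in the order where neighbours did not overlap, since 36 of 37 neighbouring pairs did.

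Within families the levels spread widely. Among EphA receptors, Epha4 was highest at 9.29 ± 0.401 per kb and Epha1 lowest at 0.306 ± 0.137. Among EphB receptors, the kinase-dead Ephb6 was highest at 8.31 ± 0.894 per kb and Ephb4, known from vessels, lowest at 0.742 ± 0.110. Efna3 led the ephrin-A ligands at 6.98 ± 0.773 per kb, and Efna1 was lowest at 0.858 ± 0.194. Of the ephrin-B ligands, Efnb1 was lowest at 0.614 ± 0.200 per kb. The Robo family split between the neuronal Robo1 and Robo2, at 7.42 ± 0.899 per kb, and the endothelial Robo4 at 0.658 ± 0.165 per kb.

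Slit2 was the highest Slit at 8.71 ± 0.415 per kb and Slit3 the lowest at 2.14 ± 0.389. Srgap1 was the lowest srGAP at 2.39 ± 0.290 per kb. The secreted netrins were low: Ntn1 stood at 2.94 ± 0.251 and Ntn4, a basement membrane protein, at 1.16 ± 0.041 per kb. Dcc reached 1.56 ± 0.241 per kb, far below its relative Neo1. Of the UNC5 receptors, Unc5b was highest at 9.24 ± 1.26 per kb and Unc5d lowest at 3.41 ± 0.326. No guidance gene had a value of 0 in any animal, 10 had a mean value under 5, and Epha1 had a mean under 1, where the rounding step is a large share of the value.

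**Figure D1:**
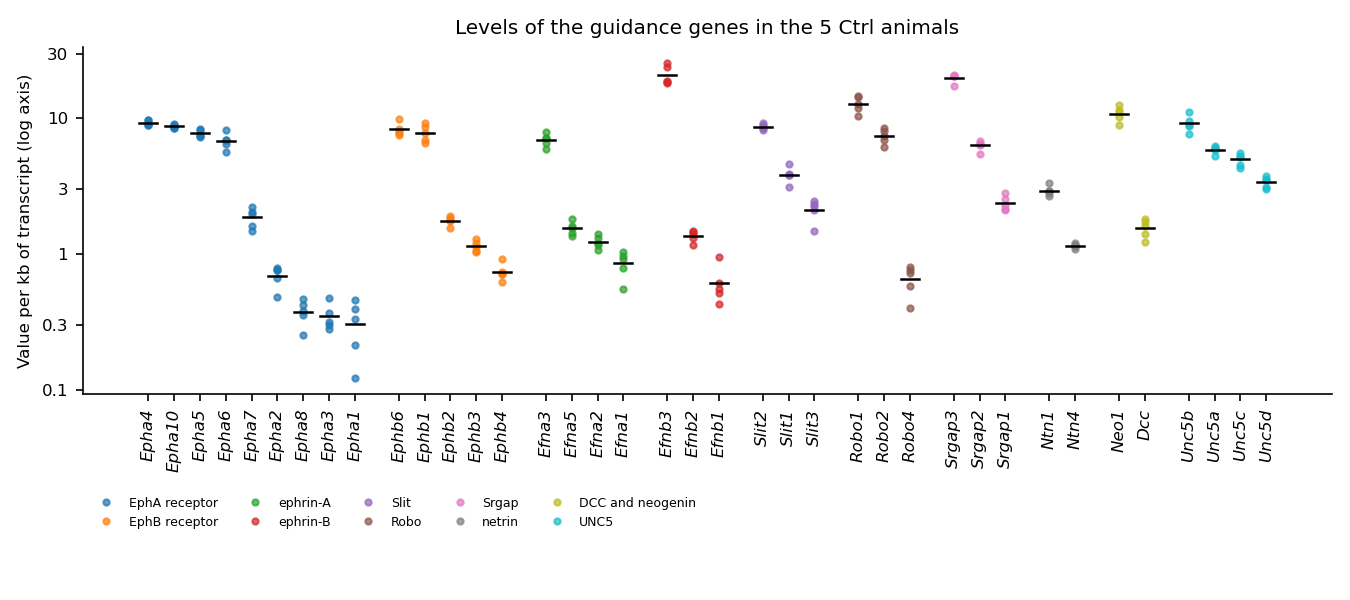
Level per kb of transcript (log axis) of the 38 guidance genes in the 5 Ctrl animals, grouped and coloured by family, with points for animals and a line for the mean. Efnb3 and Srgap3 lie highest, at 20.968 and 19.953 per kb, and Epha1 lowest at 0.306.

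Several properties of the libraries moved with 28 dpi and are given here before the comparisons. The ribosomal RNA entry Rn18s-rs5 ranged from 30321 to 52929 in Ctrl, from 44755 to 779160 at 28 dpi, from 32754 to 817780 at 14 dpi and from 78737 to 457302 at 42 dpi. The slope of the values on transcript length (log2 per 10-fold length, relative to Ctrl) ranged from -0.189 to 0.208 in Ctrl, from -0.202 to -0.069 at 14 dpi and from 0.010 to 0.382 at 28 dpi. Of the guidance genes, 35 of 38 had transcripts longer than the median gene, with medians of 5090 and 3022 bases. The summed level of 7 oligodendrocyte and white matter markers was 6446 to 9545 in Ctrl and 4618 to 6780 at 28 dpi, and that of 6 astrocyte markers 2432 to 2975 and 2835 to 3301, with no marker of either list at 0. At 14 dpi the astrocyte sum was 2355 to 2674, below every animal at 28 dpi. The sum of 6 neuron markers was 4649 to 6323 at 14 dpi, above the 3789 to 4342 at 28 dpi without overlap, and 3844 to 5726 in Ctrl, overlapping both. Of the neuron markers, Nefl and Snap25 were lower at 28 than at 14 dpi without overlap, whereas Rbfox3, Nefm, Syt1 and Tubb3 overlapped. Of the astrocyte markers, Slc1a2 carried the higher sum (1763.1 to 2089.1 and 2136.4 to 2659.4), whereas Aqp4 (315.4 to 375.0 and 273.9 to 294.0) and Aldh1l1 (40.2 to 48.0 and 35.6 to 39.7) were lower without overlap. The part of these shifts in the results below was not tested. The 5 cervical Hox genes tested were present, and 4 forebrain genes tested were not among the genes with values. In tissue RNA, fewer cells of a type and less RNA per cell cannot be told apart.

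At 4, 7 and 14 dpi no guidance gene differed from Ctrl at an adjusted p under 0.05 (limma, Benjamini-Hochberg over all genes). Nearly no gene of the table did so either: 0.106% of all genes at 4 dpi, 0.0294% at 7 dpi and 0.00588% at 14 dpi. At an unadjusted p under 0.05 there was 1 guidance gene at 4 dpi, 1 at 7 dpi and 5 at 14 dpi, all of them lower than in Ctrl. Of all genes, 5.14%, 5.84% and 11.6% had such a p, in either direction, and of the 38 guidance genes 2.63%, 2.63% and 13.2%. At 4 and 7 dpi this was the same gene, Unc5b.

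Unc5b codes for a netrin receptor also known from vessels, and it came nearest to a call. At 4 dpi its values were 34.5, 37.8, 46.4 and 46.5, and in Ctrl 45.0, 52.0, 52.7, 56.0 and 65.3. The 2 lowest animals at 4 dpi lay below every Ctrl animal and the other 2 lay within the Ctrl range. Its log2 fold change was -0.39 ± 0.10 (SE), with an adjusted p of 0.134 by limma. After correction for transcript length and GC content the adjusted p fell under 0.05, and Unc5b was then the only guidance gene to differ at 4 dpi, as did 0.177% of all genes.

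At 14 dpi 7 of 38 guidance genes lay above Ctrl, and their median log2 difference was -0.13, against -0.0085 for all genes. The 5 with an unadjusted p under 0.05 were Epha3, Epha6, Ephb3, Epha5 and Dcc, and the lowest adjusted p among the 38 was 0.392. After the length and GC correction the median was -0.044, against 0.009 for all genes, and 1 guidance gene had an unadjusted p under 0.05. All 5 animals at 14 dpi had a negative length slope. Epha10, a kinase-dead EphA receptor, was the only guidance gene whose animals did not overlap. Its values were 32.8, 35.7, 36.3, 37.6 and 38.1 at 14 dpi and 39.9, 39.9, 40.1, 41.8 and 42.3 in Ctrl. Every animal at 14 dpi was thus below every Ctrl animal, as for 0.953% of all genes, but the log2 fold change of -0.18 ± 0.09 did not pass the test (adjusted p = 0.440, limma).

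At 28 dpi 7 guidance genes were higher than in Ctrl and 1 was lower. Higher were all 3 srGAP genes, the UNC5 receptor gene Unc5a, the EphB receptor genes Ephb1 and Ephb2, and Slit3, and the lower gene was Efna3. The 7 make up 18.4% of the 38, while 11.9% of all genes were higher, and the 1 lower gene makes up 2.63%, while 13.0% of all genes were lower. The median log2 difference was 0.14 for the guidance genes and -0.0048 for all genes, and 28 of 38 were above Ctrl. Only Srgap1 also passed a limit of 1.5 on the linear fold change, set here, which 4.15% of all genes passed upward. After the correction for length and GC content the split was 3 higher and 1 lower, namely Srgap1, Srgap2, Srgap3 and Efna3, or 7.89% and 2.63% of the 38, where 8.18% of all genes were higher and 17.2% lower, and the medians were 0.001 and -0.052. With Rn18s-rs5 as a covariate no guidance gene passed, and no gene of the table did, while 7 guidance genes, all higher, had an unadjusted p under 0.05 (limma), or 18.4% of the 38 against 22.1% of all genes. The count of 8 fell to 3 without Ctrl animal A12-1 (animals are named as in the labels), to 4 without Ctrl A12-3 or 28 dpi A3-3 and to 5 without 28 dpi A4-3 or A4-4. The share of all genes called without these animals is not given, so the drop is not particular to the guidance genes on these values. The calls of Srgap1, Srgap2 and Srgap3 held without any single animal.

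**Figure D2:**
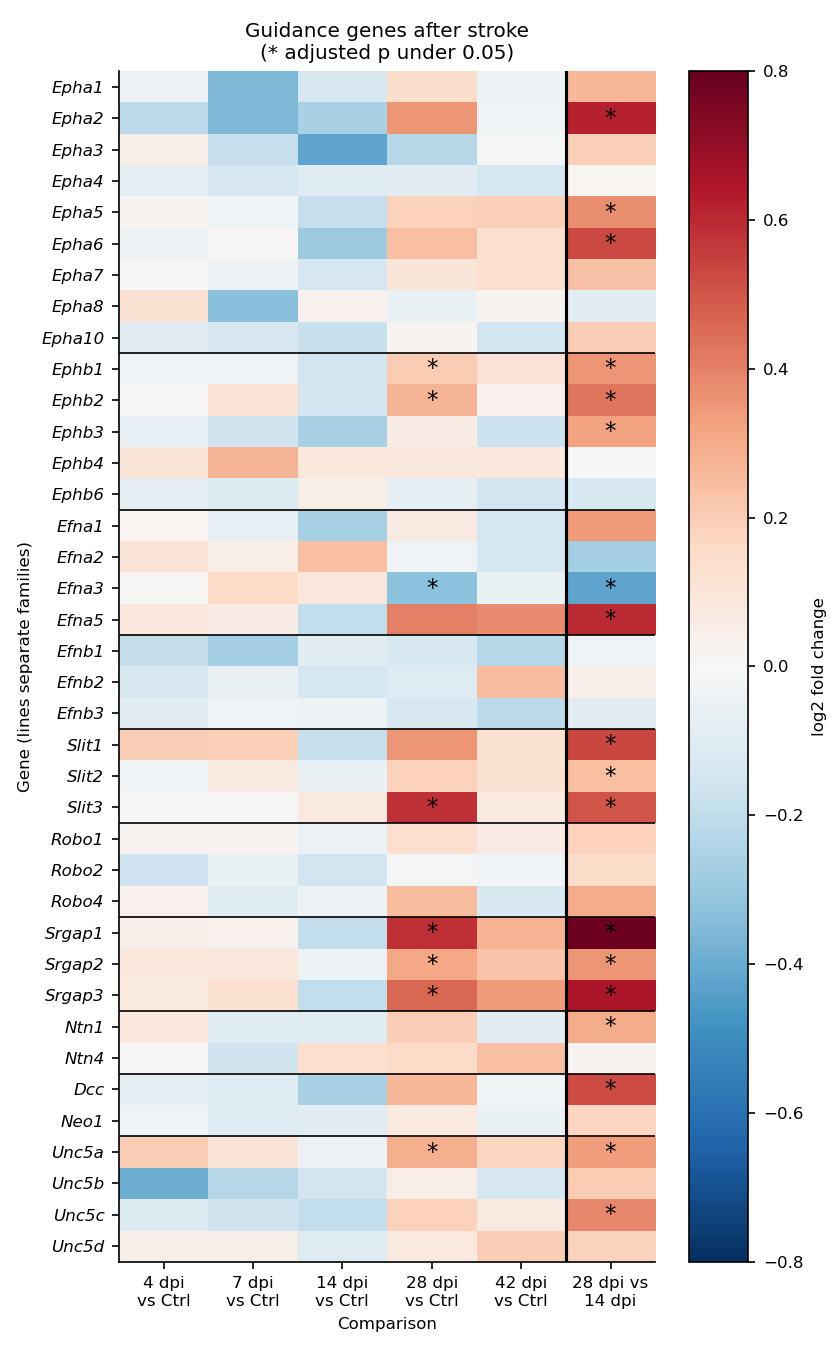
Log2 fold change (colour) of the 38 guidance genes at each time point against Ctrl and at 28 dpi against 14 dpi, with a star where the adjusted p was under 0.05. Against Ctrl the 8 stars are all at 28 dpi, and 18 stand in the comparison of 28 with 14 dpi. The comparisons with Ctrl share the same 5 Ctrl animals.

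At 28 dpi against Ctrl the srGAPs were the only family with every member called. Srgap1 (chromosome 10, 121780991 to 122047315, mm10) had values of 16.5, 16.8, 17.9, 19.8 and 21.9 in Ctrl and 22.7, 24.8, 29.7, 30.2 and 33.9 at 28 dpi. The groups did not overlap. The difference on the log2 scale was 0.59 ± 0.13 (SE) with an adjusted p of 0.00242 by limma, and it lay at that fold limit itself, whose log2 is 0.585.

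Srgap2 (chromosome 1, 131285251 to 131527352), known from dendritic spines and neuronal migration, had values of 44.0, 50.9, 52.0, 52.4 and 54.5 in Ctrl. At 28 dpi they were 58.5, 62.0, 62.4, 63.3 and 68.4. Again every animal at 28 dpi exceeded every Ctrl animal. The log2 fold change was 0.31 ± 0.06 with an adjusted p of 0.00189 by limma.

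Srgap3 (chromosome 6, 112717971 to 112947266), also called WRP, is the most highly expressed srGAP in this tissue. Its values were 153.8, 182.1, 182.7, 183.7 and 184.3 in Ctrl and 206.2, 235.3, 237.8, 253.8 and 292.2 at 28 dpi. Here 4 Ctrl animals lay within a narrow band, 1 (A12-1) lay below it, and the 28 dpi animals lay above all of them. Its log2 fold change was 0.46 ± 0.10 with an adjusted p of 0.00258 by limma. With every animal scaled to the same sum, which put the median log2 difference of all genes at -0.73, no guidance gene lay above all Ctrl animals at 28 dpi.

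The 28 dpi animal A4-1 had 44755 Rn18s-rs5, within the Ctrl range, and a length slope of 0.011. Its values of 24.8 for Srgap1, 62.0 for Srgap2 and 237.8 for Srgap3 were above all Ctrl values. The 14 dpi animal A6-3 had the highest Rn18s-rs5 of all, 817780, and values of 22.0, 53.3 and 181.4 for the same 3 genes. These were the highest of its own group. The Srgap1 value lay just above the highest Ctrl animal (21.9), the Srgap2 value within the Ctrl range and the Srgap3 value below 4 of the 5 Ctrl animals. With Rn18s-rs5 as a covariate the log2 fold changes at 28 dpi were 0.53, 0.32 and 0.41, with adjusted p of 0.0705, 0.0563 and 0.0742 by limma. After the length and GC correction they were 0.42, 0.14 and 0.25, all with an adjusted p under 0.05. The part of ribosomal RNA in the difference was not tested beyond these values.

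At 42 dpi Srgap2 ranged from 55.8 to 66.6 and Srgap3 from 195.4 to 265.6, above all Ctrl animals, while Srgap1 ranged from 18.5 to 27.3 and overlapped Ctrl. None of them passed the test at this time: the log2 fold changes were 0.28 ± 0.13 for Srgap1, 0.23 ± 0.06 for Srgap2 and 0.34 ± 0.10 for Srgap3, with adjusted p of 0.293, 0.107 and 0.125 by limma. Against 28 dpi the differences were -0.31, -0.08 and -0.12, and they did not pass either, the lowest adjusted p being 0.150.

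**Figure D3:**
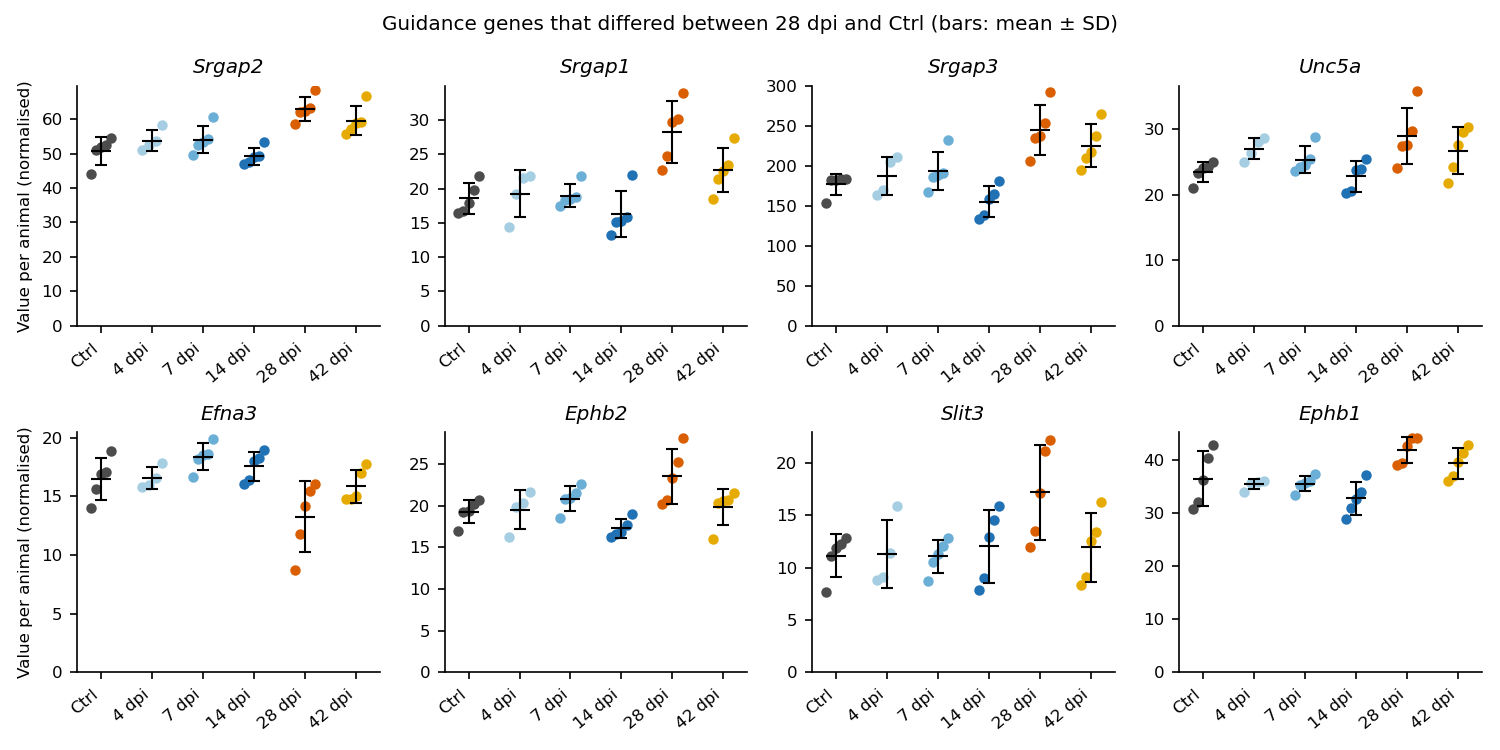
Values per animal of the 8 guidance genes that differed between 28 dpi and Ctrl, ordered by p, with points for animals and bars for the mean ± SD of each group. The 28 dpi animals lie above all Ctrl animals for Srgap1, Srgap2 and Srgap3 and overlap Ctrl for the other 5 genes.

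Of the Slits, the ligands upstream of the srGAPs, only Slit3 passed the test against Ctrl. Slit3 (chromosome 11, 35121224 to 35708507) had values of 7.7, 11.1, 11.9, 12.3 and 12.8 in Ctrl and 12, 13.5, 17.1, 21.2 and 22.2 at 28 dpi. The lowest 28 dpi animal lay within the Ctrl range, and the 28 dpi animals spread widely. The difference on the log2 scale was 0.58 ± 0.20 with an adjusted p of 0.0325 by limma, and the F test over all groups did not call the gene (adjusted p = 0.108, limma). The call was lost without Ctrl A12-1 or A12-3 or without 28 dpi A3-3, A4-3 or A4-4, with log2 fold changes from 0.46 to 0.62, and after the length and GC correction (log2 0.45, adjusted p = 0.0943, limma). Slit1 ranged from 17.7 to 26.4 in Ctrl and from 25.0 to 36.1 at 28 dpi, a log2 difference of 0.35 ± 0.13 that missed the threshold (adjusted p = 0.0528, limma). Slit2 ranged from 81.7 to 92.0 in Ctrl and from 85.5 to 111.5 at 28 dpi, a log2 difference of 0.18 ± 0.08 (adjusted p = 0.0809, limma). The receptors Robo1, Robo2 and Robo4 had log2 differences of 0.14, -0.01 and 0.25, and none passed the test in any comparison.

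Among the Eph receptors, Ephb1 and Ephb2 passed the test against Ctrl at 28 dpi, and neither did after the length and GC correction. Ephb2 (chromosome 4, 136647539 to 136835988) had values of 17.0, 19.2, 19.4, 20.2 and 20.7 in Ctrl and 20.2, 20.7, 23.4, 25.3 and 28.2 at 28 dpi. At 28 dpi 3 animals exceeded Ctrl and 2 lay within its range. The log2 fold change was 0.27 ± 0.09 with an adjusted p of 0.0285 by limma. Leaving out Ctrl A12-1 or A12-3 or 28 dpi A3-3, A4-3 or A4-4 ended the call, at log2 fold changes from 0.21 to 0.27. Its longest coding transcript, 10902 bases, is the longest of the 38, and after the correction for length and GC content the difference was -0.04.

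Ephb1 (chromosome 9, 101922128 to 102354693), known from retinal axons that turn away at the midline, had values of 30.9, 32.2, 36.4, 40.4 and 43.0 in Ctrl. At 28 dpi they were 39.1, 39.6, 42.7, 44.3 and 44.3, of which 2 exceeded the highest Ctrl animal. The log2 fold change of 0.21 ± 0.08 was the smallest of those that passed, with an adjusted p of 0.0453 by limma. It was lost on leaving out any of 9 animals in turn (Ctrl A11-4, A12-1 and A12-3, 7 dpi A7-3 and A8-1, 14 dpi A5-4, and 28 dpi A3-1, A3-3 and A4-1), at log2 fold changes from 0.15 to 0.21. After the length and GC correction it was 0.11 (adjusted p = 0.217, limma). Ephb3, Ephb4 and Ephb6 did not differ from Ctrl at any time by this test.

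None of the 9 EphA receptors passed the test against Ctrl at 28 dpi, and their log2 differences ran from -0.23 for Epha3 to 0.36 for Epha2. Epha4, the receptor best known from the corticospinal tract, ranged from 56.5 to 61.8 in Ctrl and from 51.8 to 59.1 at 28 dpi. Its log2 difference was -0.08 ± 0.08, and it was not called in any comparison. Epha5 came nearest, from 53.3 to 61.6 in Ctrl and from 56.8 to 75.4 at 28 dpi, with a log2 difference of 0.19 ± 0.07 (adjusted p = 0.0635, limma).

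Efna3, which codes for a membrane-anchored ephrin-A, was the only guidance gene that fell. It lies on chromosome 3, 89313899 to 89322965, and 14.1% of its exon bases overlap an antisense transcript, Gm15998. The library kit was not stated to keep the strand, so reads from the 2 cannot be told apart. Its values were 14.0, 15.6, 16.9, 17.1 and 18.9 in Ctrl and 8.7, 11.8, 14.2, 15.5 and 16.1 at 28 dpi. The 2 lowest animals lay below Ctrl and the other 3 within it, and the log2 fold change was -0.33 ± 0.11 (adjusted p = 0.0278, limma). Animal A3-3, with 779160 Rn18s-rs5, gave the lowest value, and without it the log2 fold change was -0.19 and was no longer called. Leaving out Ctrl A11-4, A12-1 or A12-3 or 28 dpi A4-3 also ended the call, the largest fold change among these being -0.32. The call of Efna3 was also lost in the fit of only the groups compared and with Rn18s-rs5 as a covariate (log2 -0.20).

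Efna5, an ephrin-A ligand of several EphA receptors, did not pass the test against Ctrl. It ranged from 5.5 to 7.4 in Ctrl, from 7.3 to 9.3 at 28 dpi and from 6.2 to 10.4 at 42 dpi, with log2 differences of 0.40 ± 0.17 and 0.38 ± 0.17 (adjusted p = 0.0708 and 0.278, limma). The ephrin-B ligands had log2 differences from -0.13 to -0.10 at 28 dpi, all lower than Ctrl and none called.

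Of the netrin system, only Unc5a (chromosome 13, 54949411 to 55006018) differed from Ctrl at 28 dpi. Its values were 21.0, 23.3, 24.1, 24.2 and 25.0 in Ctrl and 24.1, 27.5, 27.6, 29.7 and 35.8 at 28 dpi, so 4 of 5 animals exceeded Ctrl. Its log2 fold change was 0.28 ± 0.09 with an adjusted p of 0.0253 by limma. The call was lost without Ctrl A12-1 (log2 0.24) and without 28 dpi A4-4 (log2 0.21), and after the length and GC correction (log2 0.17, adjusted p = 0.0976, limma). The ligand gene Ntn1 ranged from 15.8 to 19.7 in Ctrl and from 16.1 to 22.4 at 28 dpi, a log2 difference of 0.20 ± 0.09 (adjusted p = 0.0945, limma). Dcc, the attractive receptor, ranged from 12.8 to 18.9 and from 15.7 to 23.1, a log2 difference of 0.27 ± 0.13 (adjusted p = 0.115, limma). Neo1, Ntn4, Unc5b, Unc5c and Unc5d lay between 0.05 and 0.19 on the log2 scale, and none passed.

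The 7 higher genes had transcripts of 3995 to 10902 bases with a median of 7787, the lower gene Efna3 one of 2363 bases, and the 30 uncalled genes ones of 1632 to 10323 bases with a median of 4873, so the ranges overlapped. The part of transcript length in these differences was not tested beyond the corrected values above.

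**Figure D4:**
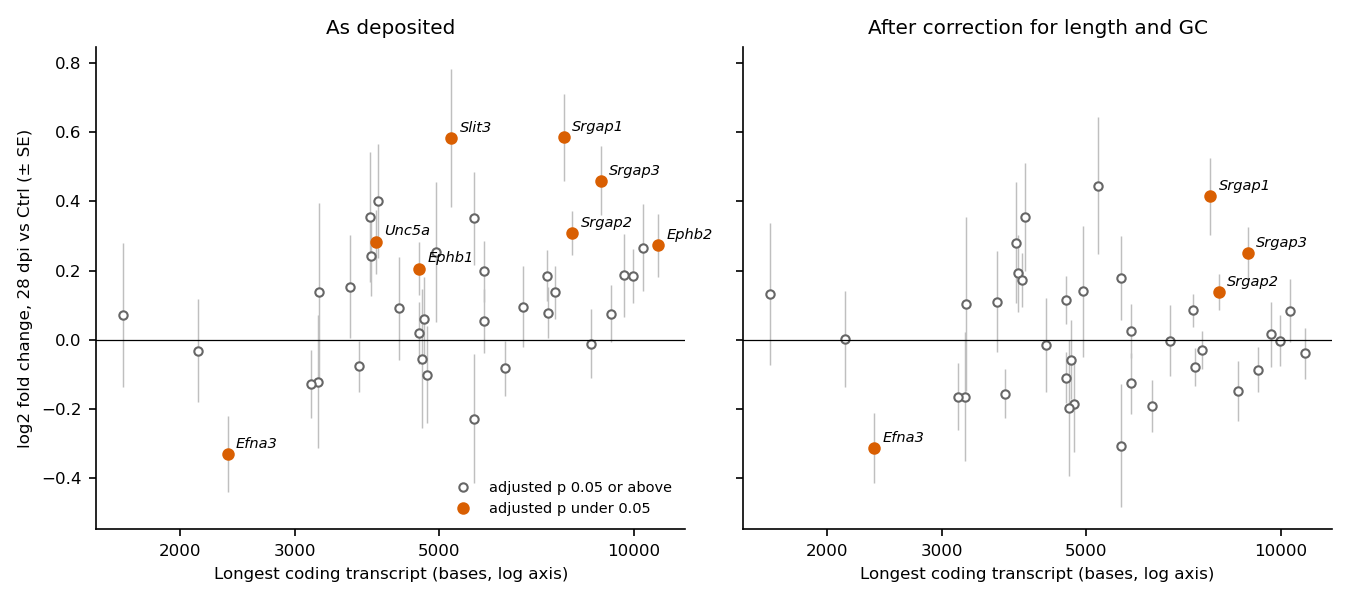
Log2 fold change at 28 dpi against Ctrl (± SE) of the 38 guidance genes plotted against the length of the longest coding transcript (log axis), from the deposited values (left) and from values corrected for both length and GC content (right). Filled points have an adjusted p under 0.05: 8 genes on the left and, on the right, Srgap1, Srgap2, Srgap3 and Efna3.

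The direct comparison of 28 with 14 dpi gave 17 higher guidance genes, or 44.7% of the 38, where 21.0% of all genes were higher, and 1 lower gene, where 21.9% of all genes were lower. The median log2 difference was 0.25, against 0.02 for all genes. Above the fold limit of 1.5 were Srgap1, Srgap3, Epha2 and Efna5, beside 7.56% of all genes. After the correction for length and GC content 9 genes were called, 7 higher (18.4% of the 38) and 2 lower (5.26%), where 13.6% of all genes were higher and 25.2% lower, and the medians were 0.052 and -0.056. Of the 18 genes 8 were still called, among them Srgap1 at 0.51, Srgap3 at 0.32, Epha5 at 0.17 and Ephb1 at 0.23, Ephb6 was added at -0.22 (adjusted p = 0.0136, limma), and the calls of Ephb2, Ephb3, Slit1, Slit2, Slit3, Srgap2, Ntn1, Dcc, Unc5a and Unc5c were lost, at log2 differences from -0.09 to 0.31. The 8 genes called against Ctrl at 28 dpi were all called here, in the same direction, and the 2 comparisons share their 28 dpi animals. For Epha2, Epha5, Ephb1, Ephb2, Slit1, Srgap1, Srgap2 and Srgap3 every animal at 28 dpi was above every animal at 14 dpi. How common this was among all genes was not counted.

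The 3 srGAPs had the lowest adjusted p of the guidance genes. Srgap1 had values of 13.3, 15.1, 15.3, 15.8 and 22.0 at 14 dpi, all below the 28 dpi range of 22.7 to 33.9. The log2 difference was 0.78 ± 0.13 (adjusted p = 4.06e-05, limma). Srgap3 had values of 133.1, 138.9, 158.6, 164.7 and 181.4 at 14 dpi, also below every animal at 28 dpi, with a log2 difference of 0.66 ± 0.10 (adjusted p = 2.66e-05, limma). Srgap2 ranged from 46.9 to 53.3 at 14 dpi and differed by 0.35 ± 0.06 (adjusted p = 9.60e-05, limma), a difference that was 0.07 and not called after the length and GC correction (adjusted p = 0.254, limma). All 3 Slit genes passed as well, Slit1 by 0.53 ± 0.13, Slit3 by 0.50 ± 0.20 and Slit2 by 0.24 ± 0.08, with adjusted p of 0.00216, 0.0414 and 0.0149 by limma. The call of Slit2 was lost without 14 dpi A6-2 or 28 dpi A3-3 or A4-3 (log2 0.18 to 0.20), and that of Slit3 without 14 dpi A5-1 or A6-2 or 28 dpi A3-3, A4-3 or A4-4 (log2 0.37 to 0.50). No Robo gene did, the lowest adjusted p being 0.0545 for Robo1.

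Of the EphA receptors, Epha2, Epha5 and Epha6 were higher at 28 than at 14 dpi. Epha2 had low values of 1.7, 2.0, 2.1, 2.3 and 2.8 at 14 dpi and 2.9, 3.5, 3.7, 3.7 and 4.2 at 28 dpi, without overlap, and a log2 difference of 0.62 ± 0.19 (adjusted p = 0.00911, limma). At these levels a step of 0.1 is a visible share of each value. Epha6 ranged from 20.4 to 24.5 at 14 dpi and from 24.1 to 38.3 at 28 dpi, a log2 difference of 0.53 ± 0.11 (adjusted p = 0.000549, limma). Epha5 ranged from 46.2 to 55.2 and from 56.8 to 75.4, a difference of 0.37 ± 0.07 (adjusted p = 0.000257, limma).

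Of the EphB receptors, Ephb1, Ephb2 and Ephb3 were higher at 28 than at 14 dpi. Their log2 differences were 0.35 ± 0.08, 0.43 ± 0.09 and 0.32 ± 0.12, with adjusted p of 0.000522, 0.000481 and 0.0298 by limma. For Ephb1 and Ephb2 every animal at 28 dpi was above every animal at 14 dpi, and for Ephb3, with values from 3.5 to 5.6 and from 5.0 to 6.7, 3 of 5 were. Without 14 dpi A5-1 or A5-3 or 28 dpi A4-3 the call of Ephb3 was lost (log2 0.25 to 0.27). The ligands Efna5 and Efna3 moved in opposite directions. Efna5 rose from a range of 4.0 to 7.4 to one of 7.3 to 9.3, a log2 difference of 0.60 ± 0.17 (adjusted p = 0.00453, limma), and Efna3 fell by 0.42 ± 0.11 from a range of 16.1 to 19.0 (adjusted p = 0.00278, limma).

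Of the netrin system, Ntn1, Dcc, Unc5a and Unc5c were higher at 28 than at 14 dpi. Dcc had values of 11.4, 12.4, 13.5, 13.8 and 15.7 at 14 dpi and 15.7, 16.2, 20.4, 22.5 and 23.1 at 28 dpi, so the groups met at 1 value. Its log2 difference was 0.52 ± 0.13 (adjusted p = 0.00142, limma). Those of Ntn1, Unc5a and Unc5c were 0.29 ± 0.09, 0.33 ± 0.09 and 0.38 ± 0.12, with adjusted p of 0.00825, 0.00472 and 0.0112 by limma. Unc5c ranged from 37.4 to 44.1 at 14 dpi and from 39.3 to 70.2 at 28 dpi, where animal A4-1 had the lowest value, and without 28 dpi A3-3 its call was lost (log2 0.29).

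At 42 dpi no guidance gene differed from Ctrl, and 0.0235% of all genes did. At an unadjusted p under 0.05 there were 8, or 21.1% of the 38 against 14.8% of all genes, of which 6 were higher and 2 lower. Efnb2, Ntn4, Srgap2 and Srgap3 had no overlap with Ctrl, all upward, as did 2.21% of all genes. Efnb2, an ephrin-B ligand known from arteries, had values of 5.6, 6.3, 6.8, 7.0 and 7.1 in Ctrl and 7.2, 7.6, 7.9, 8.1 and 8.5 at 42 dpi. The gap between the groups was a single rounding step, and the groups overlapped under quantile normalisation and under median centring. Its log2 difference was 0.25 ± 0.14 (adjusted p = 0.428, limma). Ntn4 ranged from 4.0 to 4.4 in Ctrl and from 4.6 to 5.6 at 42 dpi, a log2 difference of 0.24 ± 0.15 (adjusted p = 0.470, limma).

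No guidance gene differed between 42 and 28 dpi, where 1.94% of all genes did. At an unadjusted p under 0.05 there were 9, or 23.7% of the 38 against 21.1% of all genes, of which 7 were lower and 2 higher at 42 dpi. The median log2 difference was -0.11, against -0.0053 for all genes, and the lowest adjusted p was 0.0718, that of Ntn1 at -0.29. Without 28 dpi A3-1, 1 guidance gene was called, and the share of all genes in that fit is not given.

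The F test over the 6 groups called 15 guidance genes, with 31.6% of all genes called. Without 28 dpi A4-4 it called 9, and the share of all genes in that fit is not given. The 15 were Epha2, Epha5, Epha6, Ephb1, Ephb2, Efna3, Efna5, Slit1, Srgap1, Srgap2, Srgap3, Ntn1, Dcc, Unc5a and Unc5b. The lowest adjusted p were those of Srgap3 at 0.000399, Srgap1 at 0.000722 and Srgap2 at 0.000803 (limma). Unc5b was the only gene called here and in no single comparison. In the deposited values no test called the other 19 guidance genes: Epha1, Epha3, Epha4, Epha7, Epha8, Epha10, Ephb4, Ephb6, Efna1, Efna2, the 3 ephrin-B genes, the 3 Robo genes, Ntn4, Neo1 and Unc5d.

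Other genes of these pathways went both ways, read beside the 11.9% of all genes that were higher and the 13.0% that were lower at 28 dpi than in Ctrl. All values of these lists are from the deposited values, and those after the length and GC correction are not given. With Rn18s-rs5 as a covariate no gene of the table passed at 28 dpi against Ctrl. Of 37 genes of Eph and ephrin signalling, 9 (24.3%) were higher and 6 (16.2%) lower at 28 dpi, with a median log2 difference of 0.02. The kinase gene Abl2, the ubiquitin ligase gene Cbl and the scaffold gene Grip2 were higher by 0.29 ± 0.07, 0.48 ± 0.13 and 0.56 ± 0.15 on the log2 scale (adjusted p = 0.00407, 0.00956 and 0.00966, limma). Lower were Sdcbp, which codes for the PDZ protein syntenin, by -0.36 ± 0.07, the EphA4 effector Chn1 by -0.30 ± 0.07 and the kinase gene Fyn by -0.19 ± 0.06 (adjusted p = 0.00145, 0.00360 and 0.0234, limma). Sdcbp was also the only gene of this list that differed between 42 and 28 dpi, higher at 42 dpi by 0.29 ± 0.07 (adjusted p = 0.0290, limma).

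Of 31 genes of Slit and Robo signalling, 6 (19.4%) were higher and 8 (25.8%) lower at 28 dpi than in Ctrl. Higher were Plxna1, a semaphorin receptor that also binds a Slit fragment, by 0.46 ± 0.10, the dystroglycan gene Dag1 by 0.26 ± 0.07 and the actin regulator Enah by 0.30 ± 0.09 (adjusted p = 0.00238, 0.0109 and 0.0139, limma). Lower were Ndfip1 and Ndfip2, adaptors for the ubiquitination of Robo1, by -0.41 ± 0.08 and -0.26 ± 0.06, and Cdc42, the GTPase that srGAP1 inactivates, by -0.29 ± 0.07 (adjusted p = 0.00145, 0.00484 and 0.00397, limma). The heparan sulfate proteoglycan gene Sdc2 was higher at 42 than at 28 dpi by 0.25 ± 0.06 (adjusted p = 0.0397, limma).

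Of 31 genes of netrin signalling, 11 (35.5%) were higher and 2 (6.45%) lower at 28 dpi than in Ctrl, with a median log2 difference of 0.18. Higher were the netrin receptor gene Dscam by 0.42 ± 0.09, Trim67, a paralogue of the DCC-binding ligase Trim9, by 0.46 ± 0.11, and Flrt1, from a family of UNC5 ligands, by 0.46 ± 0.12 (adjusted p = 0.00348, 0.00367 and 0.00664, limma). Lower were the UNC5A-binding Maged1 by -0.23 ± 0.05 and the phosphatidylinositol transfer gene Pitpna by -0.18 ± 0.06 (adjusted p = 0.00337 and 0.0268, limma). Myo10, a filopodial motor that carries DCC, was lower at 42 than at 28 dpi by -0.41 ± 0.09 (adjusted p = 0.0248, limma). At 4, 7, 14 and 42 dpi no gene of the 3 lists differed from Ctrl. Between 28 and 14 dpi the 3 lists had 12, 10 and 16 higher genes (32.4%, 32.3% and 51.6%) and 4, 10 and 3 lower genes (10.8%, 32.3% and 9.68%), where 21.0% of all genes were higher and 21.9% lower.

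In that comparison the lowest p in the list of Eph and ephrin signalling belonged, upward, to Cbl at 0.79 ± 0.13, Itsn1 at 0.47 ± 0.08 and Abl2 at 0.35 ± 0.07, and downward to Sdcbp at -0.43 ± 0.07, Chn1 at -0.36 ± 0.07 and Rhoa, the GTPase of growth cone collapse, at -0.23 ± 0.07. In the Slit list they belonged to Plxna1 at 0.63 ± 0.10, Enah at 0.50 ± 0.09 and Sos1 at 0.47 ± 0.09, and to Cdc42 at -0.47 ± 0.07, Ndfip1 at -0.49 ± 0.08 and Ndfip2 at -0.31 ± 0.06. In the netrin list they belonged to Trim9 at 0.45 ± 0.07, Flrt1 at 0.69 ± 0.12 and Dscam at 0.56 ± 0.09, and to Maged1 at -0.28 ± 0.05, Pitpna at -0.26 ± 0.06 and Siah1a at -0.32 ± 0.11. All 18 had an adjusted p under 0.05 by limma, the highest being 0.0201 for Siah1a.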

How the data were processed

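Total RNA was depleted of ribosomal RNA and sequenced. The authors used SALMON and Tximport for read quantification (mouse transcriptome, mm10), and edgeR 3.14.0 under R 3.4.1 for normalisation. The deposited values are a score, normalised CPM rounded to 0.1 and not raw counts. Their sums differ between animals and the depth of each sample is unknown, so the spread between animals is the sole measure of precision. The authors' own fold changes and p-values, deposited beside them, were not used.

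Values were analysed as log2(value + 0.5) with limma 3.58.1 in R 4.3.3 (mean-variance trend, 6 group means, 29 animals), with Benjamini-Hochberg adjustment over 16995 genes. The fit was tried on simulated data whose noise was independent between genes and animals. A gene was called at an adjusted p under 0.05. Fold changes understate low genes. Transcript lengths, GC content and overlaps came from GENCODE M21, in which all 38 genes were found. Genes called in any test and the highest and lowest of each family were given values, and of the pathway lists up to 3 called genes per direction and comparison. The members, lists and tests were chosen with earlier results of these data known. Replicates were separate animals.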

Additional observations from a re-analysis of the deposited data

Results flagged for a closer look

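In 5 of the 228 sets of a gene and a group, 1 animal stood apart from the others of its group by Dixon's criterion, where chance gives about 1 in 20. These were Ephb2 in 42 dpi A3-4 (16.0, the others from 20.3 up), Ephb6 in 28 dpi A4-4 (32.9, the next 29.2), Slit1 in 28 dpi A4-4 (36.1, the next 27.6), Srgap1 in 14 dpi A6-3 (22.0, the next 15.8) and Srgap3 in Ctrl A12-1 (153.8, the next 182.1).

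Values at 28 dpi differed from those at 14 dpi for 18 guidance genes (limma), where 21.0% of all genes were higher and 21.9% lower. Sham animals formed 1 group, not 1 per time point. The log2 differences, 28 minus 14 dpi, were 0.62 for Epha2, 0.37 for Epha5, 0.53 for Epha6, 0.35 for Ephb1, 0.43 for Ephb2 and 0.32 for Ephb3. They were 0.60 for Efna5 and -0.42 for Efna3. For the Slit and srGAP genes they were 0.53 (Slit1), 0.24 (Slit2), 0.50 (Slit3), 0.78 (Srgap1), 0.35 (Srgap2) and 0.66 (Srgap3). In the netrin system they were 0.29 for Ntn1, 0.52 for Dcc, 0.33 for Unc5a and 0.38 for Unc5c.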

How the results depend on the processing

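The number of guidance genes called at 28 dpi against Ctrl, 8, was the same or within 1.5 times under another pseudocount, filter, variance model, quantile normalisation, median centring and the animals' shared label number as a random block. Label numbers other than A3 each held animals of a single group, so that block cannot separate label number from group. The number called was 5 from the 2 groups alone (13.0% of all genes called), 4 after correction for length and GC content, 0 with Rn18s-rs5 as a covariate and 22, all lower, with every animal scaled to the same sum (57.9% of the 38, against 66.0% of all genes). From the 2 groups alone the calls of Ephb1, Ephb2, Efna3 and Unc5a were lost. That scaling put the median log2 difference of all genes at -0.73, and all 7 higher genes then lay below Ctrl but, relative to that median, still higher: Ephb1 -0.57, Ephb2 -0.50, Slit3 -0.18, Srgap1 -0.19, Srgap2 -0.47, Srgap3 -0.33 and Unc5a -0.49. Length and GC correction turned Ephb2 to -0.039. Between 28 and 14 dpi, in place of 18, 9 genes were called after the length and GC correction and 0 with the same sum (4.21% of all genes). Among the calls lost, Ephb2 (-0.042) and Slit2 (-0.089) changed sign under the correction, and Slit2 (-0.025) with the same sum, where the median of all genes was -0.22. The F test gave 7, 25 and 9 genes under length correction, same sum and the covariate (18.4%, 65.8% and 23.7%, against 28.8%, 66.5% and 20.5% of all genes). At 4 dpi the length correction gave 1 gene, Unc5b (0.177% of all genes). At 4 dpi, non-overlap with Ctrl was found for 1 gene under quantile normalisation (Unc5a, above Ctrl, as for 1.12% of all genes) and 1 under median centring (Unc5b, below, as for 0.706%). With the same sum it was found, below Ctrl, for 5 genes at 14 dpi, 4 at 28 dpi (Epha4, Ephb6, Epha3 and Unc5c) and 10 at 42 dpi, or 13.2%, 10.5% and 26.3% of the 38, against 5.80%, 18.2% and 34.3% of all genes, and for none above Ctrl at these times.

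A setting chosen after the data were seen kept only animals with Rn18s-rs5 at or below the highest value of the 4 and 7 dpi groups, which left 3 animals at 14 dpi and 1 each at 28 and 42 dpi, the lone animals being assumed to vary like the other groups. It gave 0 calls at 28 dpi against Ctrl, 2 against 14 dpi (Srgap1 at 0.74 and Srgap3 at 0.71) and 1 in the F test, beside 9, 602 and 116 of all genes. Unc5c, not called there, turned to -0.12 against 14 dpi. The log2 fold changes against Ctrl of the 8 genes were then 0.41 for Srgap1, 0.29 for Srgap2, 0.43 for Srgap3, 0.33 for Unc5a, 0.23 for Ephb1, 0.10 for Ephb2, 0.28 for Slit3 and -0.03 for Efna3. Leaving out 1 animal at a time gave 3 to 11 genes at 28 dpi, 15 to 22 between 28 and 14 dpi, 0 to 1 between 42 and 28 dpi and 9 to 17 in the F test. The calls over all genes in these fits are not given, so these ranges have no share of all genes beside them. The causes of these changes were not tested. The depth of the libraries is unknown.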
